A study of Mus musculus with 89 samples.

Results

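The cells described here are mouse jejunal enterocytes that held no UMI of Ada (adenosine deaminase, a purine enzyme known from the villus tip), taken from single-cell wells and labelled as enterocytes of the lower villus. A well was kept with 200 to 7000 UMIs (unique molecular identifiers, each standing for 1 captured mRNA molecule), 150 to 1500 genes, at most 40% of UMIs from genes encoded in the mitochondrial genome (mt- genes) and at most 2 UMIs summed over the lymphocyte, goblet, tuft and enteroendocrine genes Cd3g, Cd7, Gzma, Muc2, Dclk1, Trpm5, Chga and Chgb. Among these, an enterocyte without Ada had at least 1000 UMIs, at least 0.5% of its UMIs in Fabp1, Fabp2, Apoa1, Apoa4 and Apob together, and no Ada UMI. The table held 16850 wells, of which 5199 met the limits on UMIs, genes and mt- share, 3178 were kept and 1034 were enterocytes without Ada. Their numbers were 158, 278, 286 and 312 in mice 1 to 4. The cells were thus chosen by their own UMIs of Ada, of the 5 enterocyte genes and of the 8 excluded markers, so levels in these wells are a description and carry no test.

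The study sequenced single cells and incompletely dissociated clumps of jejunal epithelium from untreated C57BL/6 males on regular chow, using MARS-seq, which reads the 3' ends of mRNA from barcoded wells of a plate. The single cells came from 4 mice aged 3 months on 44 plates, of which 3 plates of mouse 2 are labelled 4 months. The sort is given by plate labels such as Epcam, onlyEpcam, CD45Epcam, CD54Epcam and names with CD24, and several plates carry none. Clumps with a DNA content of 4n (pairs of cells), used for the tests further on, came from 5 mice aged 3 months with numbers of their own, and whether some of them also gave single cells is not given in the sources used here.

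Enterocytes arise in the crypt, move up the villus within days and are shed at its tip, and their expression changes on the way. The lower villus is known for antimicrobial lectins of the Reg3 family and for Lypd8, a secreted protein that keeps flagellated bacteria off the epithelium. The middle is known for sugar and amino acid transporters, and the tip for apolipoproteins, purine handling and cell adhesion genes. Mouse numbers, levels as CPM (UMIs of a gene per 1000000 UMIs of the summed wells of 1 mouse) and SDs over 4 mice are used throughout. In summed wells, fewer cells with an RNA and less of it per cell cannot be told apart.

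Promoters of 3 genes are shown for their contrast between the cells and Ada positive enterocytes only. Lypd8 and Sis had the largest ratios among the 6 genes raised in all mice, and Slc28a2 was among the most lowered. Each stretch covers 250 bases before to 50 bases after the RefSeq start on GRCm38.p6 and reads 5′ to 3′ on the gene's strand. Capitals mark the letters TTTAT or its complement ATAAA, a short core preferred by CDX factors, and GTTAAT or ATTAAC, a partial site of HNF1 factors, and neighbouring matches can overlap.
Lypd8, chr11:58378782-58379081, plus strand: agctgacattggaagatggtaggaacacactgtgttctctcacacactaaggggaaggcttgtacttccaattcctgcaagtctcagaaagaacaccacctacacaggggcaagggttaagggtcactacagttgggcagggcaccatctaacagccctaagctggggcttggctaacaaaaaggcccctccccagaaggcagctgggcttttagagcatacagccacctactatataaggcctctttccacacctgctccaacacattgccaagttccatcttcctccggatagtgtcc
Sis, chr3:72967814-72968113, minus strand: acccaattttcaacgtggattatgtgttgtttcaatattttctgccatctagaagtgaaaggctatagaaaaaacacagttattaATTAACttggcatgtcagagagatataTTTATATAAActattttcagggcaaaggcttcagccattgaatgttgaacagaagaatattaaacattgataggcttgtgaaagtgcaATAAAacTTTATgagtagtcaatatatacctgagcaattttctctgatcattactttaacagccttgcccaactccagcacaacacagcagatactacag
Slc28a2, chr2:122426185-122426484, plus strand: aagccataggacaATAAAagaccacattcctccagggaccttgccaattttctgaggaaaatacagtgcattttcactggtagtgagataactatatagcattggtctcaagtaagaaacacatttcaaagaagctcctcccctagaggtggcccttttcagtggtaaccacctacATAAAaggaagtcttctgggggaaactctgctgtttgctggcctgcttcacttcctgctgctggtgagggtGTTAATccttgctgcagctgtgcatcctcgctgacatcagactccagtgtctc
The Sis stretch held 4 matches of the first motif and 1 of the second, the Slc28a2 stretch 2 and 1, and the Lypd8 stretch 0 of either. Over all 32851 promoters of the table, 40% held the first motif and 7.1% the second on either strand, so the matches describe these letters and nothing more.

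The cells had a median of 2915.5 UMIs, with medians of 2948.5, 2575, 3711.5 and 2539 in mice 1 to 4, and summed to 544968, 807779, 1075334 and 906928 UMIs. They lay on 38 of the 44 plates, with a median of 24.5 and at most 73 on a plate. No 2 of them held identical counts, and the well barcodes recur on every plate by design. The abundant non-coding RNA Gm42418 stood at 321300, 226600, 188900 and 150000 CPM in mice 1 to 4, and mt- genes together at 304600 to 335000 CPM. The pseudogenes Gm29216, Gm10925, Gm28661, Gm13340, Gm28437 and Gm13341 had means of 40670, 31450, 25810, 21720, 21460 and 8616 CPM in the cells. They lie on chromosomes 1 and 2 and are not mt- genes, so the mt- share and its limit leave their UMIs out. Whether these UMIs came from mitochondrial RNA was not tested. The libraries of mouse 1 stood apart, with the most Gm42418, the fewest genes per cell (a median of 433.5 against 540 to 688.5) and the lowest level of most genes named below. Total counts of genes are also given with a mouse left out, and shares of wells with a UMI over mice 2 to 4. Other single-cell levels, sums and list counts include mouse 1 unless stated.

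The sort moved with the share of these cells. On plates of mouse 2 labelled Epcam, 48.4% of kept wells were enterocytes without Ada, and on those labelled CD24 1.47%, or 3 of 204 (exact 95% interval 0.304 to 4.24%, counting error only). In mouse 3 the share was 48.7% on CD45Epcam plates and 28.3% on onlyEpcam plates, and in mouse 4 46.0% on CD54Epcam and 34.5% on onlyEpcam plates. Mouse 1 gave 23.0% on plates with no sort label and 0 of 28 and 0 of 19 wells on plates labelled EpcamLow_Cd24high and Epcam_Cd24low, which allow shares of up to 12.3 and 17.6% by the exact interval.

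Close to the thresholds, 31 cells lay within 100 UMIs above the minimum and 31 further wells missed the rule only by lying within 100 UMIs below it. At the enterocyte share, 43 cells held 0.5 to 0.55% and 26 wells missed at 0.45 to 0.5%. The 797 wells that met the same rule but held Ada are called Ada positive wells, with a median of 3178 UMIs and of 3 Ada UMIs, and 229 of them held a single Ada UMI. At this depth the lack of an Ada UMI does not show that a cell made no Ada.

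The label came with the markers Fabp2, Lypd8 and Slc5a1, whose levels follow. They are no independent check, since the cells and gene lists were chosen with earlier results of these data known. Fabp2, the intestinal fatty acid binding protein, stood at 1679, 3980, 4999 and 3687 CPM in mice 1 to 4 and is part of the rule. Slc5a1, the sodium-glucose cotransporter of the brush border, stood at 549, 1261, 1531 and 1375 CPM in the cells against 394, 689, 1067 and 625 CPM in Ada positive wells, higher in 4 of 4 mice. Lypd8, on chromosome 11 of GRCm38 from 58379043 to 58390728, stood at 169, 540, 764 and 507 CPM against 56.5, 166, 214 and 127 CPM. The ranges of Lypd8 in the 2 groups overlapped only through mouse 1. After each well was thinned to 1000 UMIs, a Lypd8 UMI was seen in 27.2% of the cells, 9.71% of Ada positive wells and 8.6% of wells with lymphocyte markers, and unthinned in 42.8%, 21% and 12.3%. The corresponding thinned shares for Slc5a1 were 66.4%, 44.8% and 6.99%, and for Fabp2 82.8%, 80.3% and 15.7%. These shares are means over mice 2 to 4, since mouse 1 had 1 lymphocyte well. The lymphocyte wells, 608 in number and at a median of 1405.5 UMIs, are a cell type that should lack these RNAs and stand for background.

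Lypd8 did not set the cells apart from every other well. In the 789 wells of at least 1000 UMIs with less than 0.5% of the enterocyte genes, called low wells, Lypd8 stood at 46.6, 164, 620 and 661 CPM, above the cells in mouse 4. Landmark genes of the tip summed to 5703 ± 1261 CPM in the cells, 16940 ± 2499 in Ada positive wells and 4138 ± 2259 in low wells. Crypt landmarks summed to 1884 ± 1067, 837 ± 353 and 10590 ± 5328 CPM, and middle villus landmarks to 1431 ± 479, 863 ± 225 and 258 ± 75.7 CPM. The cells thus lay below Ada positive wells in tip landmarks and above them in crypt landmarks, in mean and in 4 of 4 mice, so that "lower villus" is used only relative to Ada positive wells. The study's tip list holds Ada itself, left out of these sums, so a lower tip sum in wells without Ada is in part built in. The nuclear RNA Malat1 is 1 of the tip landmarks. Without it the tip sum was 3074, 2888, 2584 and 3609 CPM in the cells of mice 1 to 4, against crypt sums of 363, 1934, 2702 and 2538 CPM, so that crypt UMIs were the more in mouse 3. In the lymphocyte wells of mice 2 to 4 the tip sum was 5395, 4841 and 6145 CPM with Malat1, against 5504, 4290 and 5663 CPM in the cells of these mice, and 1081, 1018 and 1584 CPM without it. The tip sum with Malat1 therefore did not set the cells apart from lymphocyte wells.

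Markers of other cell types were present at differing levels. The rule itself caps Muc2 of the goblet list, Dclk1 and Trpm5 of the tuft list, Chga and Chgb of the enteroendocrine list and Cd3g, Cd7 and Gzma of the lymphocyte list, so low values of these 4 lists are in part built in. In the cells, goblet markers summed to 88.2 to 612 CPM over mice, against 107 to 764 CPM in Ada positive wells and 510 to 1655 CPM in low wells. Paneth markers reached 36.7 to 251 CPM and those of stem and dividing cells 49.3 to 78.0 CPM, with Ascl2 and Ccnb1 at 0. Tuft markers lay at 7.72 to 87.9 CPM, with Gfi1b and Pou2f3 at 0, and enteroendocrine markers at 28.7 to 90.4 CPM, with Scg5 at 0. B and plasma cell markers summed to 3.67 and 7.43 CPM in mice 1 and 2 and to 1189 and 667 CPM in mice 3 and 4, with Cd79a and Ms4a1 at 0, and stood at 1.45, 7.33, 1377 and 659 CPM in Ada positive wells and at 277 to 74760 CPM in low wells. In mice 3 and 4 this sum was above the cells' Lypd8 level of 764 and 507 CPM, and its part in the results was not tested. Lymphocyte markers lay at 7.34 to 166 CPM with Trdc at 0, myeloid markers at 0 to 14.0 CPM, stroma markers at 0 to 15.4 CPM and erythroid markers at 0 to 22 CPM. Erythroid markers reached 32210 and 27600 CPM in the low wells of mice 1 and 2, so low wells mix several cell types.

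**Figure D1:**
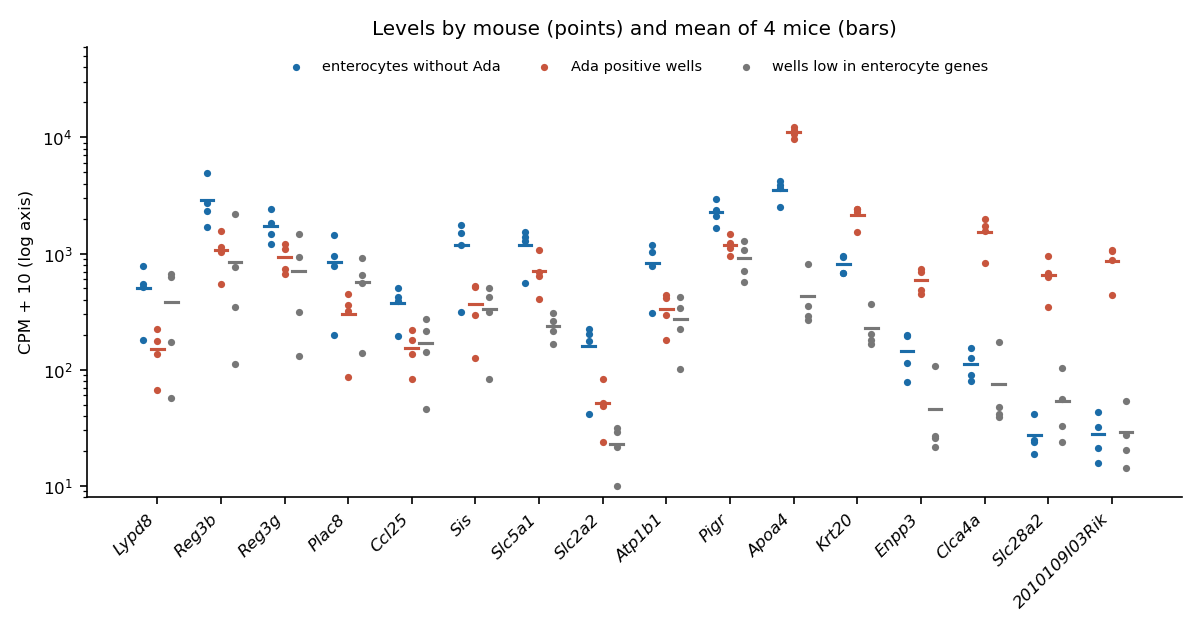
Levels of 16 genes in CPM + 10 on a log axis, in enterocytes without Ada, Ada positive wells and wells low in enterocyte genes, with 1 point per mouse and a bar at the mean of 4 mice. Lypd8, Reg3b, Sis and Plac8 lay higher without Ada than with Ada in every mouse, and Slc28a2, Clca4a and 2010109I03Rik had mean levels of 17.1, 102 and 18 CPM against 642, 1517 and 854 CPM.

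Against Ada positive wells, the closest enterocytes, the cells had more antimicrobial, sucrase and Atp1b1 RNA and less RNA of 15 of the 22 tip landmarks counted. Among 641 genes at a mean of at least 100 CPM in either group, 6 were at least 2-fold higher in all 4 mice, or 0.936%, namely Arg2, Gstm3, Lypd8, Plac8, Reg3b and Sis. A further 27, or 4.21%, were at least 2-fold lower in all 4 mice, and the median log2 ratio over all 641 was 0.08. Ratios are log2((CPM + 10)/(CPM + 10)) per mouse, which understates changes of low genes. Both groups were cut from the same wells by Ada, so these are descriptions. Without mouse 1, where most levels were lowest, 31 genes were higher and 55 lower in the 3 mice left.

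Of the antimicrobial genes, Reg3b, a secreted lectin that acts on bacteria, stood at 1677, 2304, 2733 and 4908 CPM without Ada and at 538, 1026, 1117 and 1559 CPM with Ada, a mean log2 ratio of 1.43 ± 0.24 (SD, n = 4 mice). Every mouse had more Reg3b without Ada, and mouse 4 the most in both groups. Its relative Reg3g stood at 1712 against 921 CPM in mean, a log2 ratio of 0.88 ± 0.12, and Reg1 at 36.7 to 205 CPM against 7.25 to 105 CPM, a ratio of 1.13 ± 0.40. Lypd8 had the ratio 1.69 ± 0.21, which is 3.24-fold. Pigr, the receptor that carries IgA to the lumen, stood at 2251 against 1180 CPM, a ratio of 0.92 ± 0.24.

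The whole list of 16 antimicrobial and lower villus genes summed to 5501, 7272, 8879 and 11500 CPM without Ada and to 2959, 3583, 4199 and 4657 CPM with Ada, so that the groups did not overlap. Of the 7 members abundant enough to be counted, 2 were 2-fold higher in all mice and none 2-fold lower, where 0.936% and 4.21% of all 641 genes were, and their median ratio was 1.13 against 0.08 over all genes. Duoxa2, a partner of the dual oxidase Duox2, and Zg16, a goblet cell lectin, stood lower in 4 of 4 mice, Duoxa2 at 0.93 to 11.0 CPM against 29.2 to 63.5 CPM and Zg16 at 168 against 216 CPM in mean. Nlrp6 and Il18, an inflammasome sensor and the cytokine released through inflammasomes, stood at 71.2 and 47.8 CPM against 21.6 and 12.7 CPM in mean, with Nlrp6 lower in mouse 1.

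Plac8 was another gene higher in all mice, at 189, 764, 1442 and 937 CPM without Ada and 76.1, 347, 442 and 313 CPM with Ada, a log2 ratio of 1.39 ± 0.27. Ccl25, the chemokine that draws lymphocytes bearing CCR9 to the small intestine, stood at 184, 411, 490 and 377 CPM against 73.2, 208, 169 and 127 CPM, a ratio of 1.29 ± 0.26. Ccl25 was higher in 4 of 4 mice but fell just short of 2-fold in 1 of them. Arg2, the mitochondrial arginase, stood at 31.2, 173, 217 and 165 CPM against 10.2, 56.2, 50.2 and 47.3 CPM. Gstm3, a glutathione transferase, stood at 38.5, 250, 405 and 84.9 CPM against 13.8, 78.2, 114 and 26.4 CPM. Among further genes named for their size, Maoa, Traf5, Marc2 and Eef1a1 had means of 246, 224, 271 and 254 CPM against 90.6, 88.1, 137 and 102 CPM.

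Sugar digestion and uptake showed 1 gene past 2-fold in all mice. Sis, the sucrase-isomaltase of the brush border on chromosome 3 from 72888557 to 72967863, stood at 301, 1498, 1742 and 1181 CPM without Ada and at 117, 515, 506 and 286 CPM with Ada, a ratio of 1.65 ± 0.31 or 3.13-fold. Its relative Mgam, maltase-glucoamylase, stood at 902 against 488 CPM in mean with a ratio of 0.81 ± 0.27, and lactase, Lct, at 449 against 320 CPM with 0.44 ± 0.23. The peptidase Anpep stood at 1168 against 710 CPM, higher in 3 of 4 mice. Slc2a2, the basolateral glucose and fructose carrier, stood at 31.2, 193, 215 and 165 CPM against 13.8, 39.1, 72.9 and 41.7 CPM, a ratio of 1.51 ± 0.54. Slc5a1 had a ratio of 0.74 ± 0.31. The hexose list summed to 1785, 3466, 3951 and 3602 CPM in mice 1 to 4 without Ada and to 1651, 2565, 3378 and 2140 CPM with Ada. The list of brush border hydrolases, which also holds Cps1, summed to 3573, 7523, 7792 and 8829 CPM against 3418, 5332, 6136 and 5171 CPM. Within each mouse both sums were higher without Ada, in 4 of 4 mice. In mouse 1 the gap of each sum was smaller than that of 1 member, Slc5a1 for hexose genes and Sis for hydrolases. Of 5 hexose genes and 14 hydrolases counted, 0 and 1 were 2-fold higher in all mice, where 0.936% of all genes were, and none were 2-fold lower, where 4.21% were.

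Atp1b1, the beta subunit of the sodium pump, which keeps the gradient that Slc5a1 uses, stood at 297, 1026, 1165 and 779 CPM against 169, 401, 433 and 288 CPM, a ratio of 1.23 ± 0.30. It was higher in 4 of 4 mice, though not 2-fold in all. The ion transport and guanylin list summed to 2538 ± 863 CPM against 1546 ± 346.

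Amino acid and peptide carriers lay on both sides. Their list summed to 807, 1488, 1612 and 1852 CPM without Ada and to 727, 1202, 1504 and 1352 CPM with Ada, higher in 4 of 4 mice. Slc6a19, the neutral amino acid carrier, stood lower without Ada in 4 of 4 mice, at 289 against 386 CPM in mean with a ratio of −0.38 ± 0.24. The peptide carrier Slc15a1 stood at 184 against 183 CPM. Slc43a2 stood at 299 against 159 CPM, higher in 4 of 4 mice.

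Lipid genes lay on both sides. Chylomicron genes outside the rule summed to 4721 ± 577 CPM without Ada and 6233 ± 645 CPM with Ada. Apoc3, a regulator of lipoprotein lipase, stood at 656 against 1299 CPM, lower in 4 of 4 mice, while Mttp, which loads lipid onto apolipoprotein B, stood at 688 against 543 CPM, higher in 4 of 4. Of the genes in the rule, Apoa4 stood at 4204, 3625, 2488 and 3861 CPM against 9654 to 12170 CPM, Apoa1 at 6743 against 10470 CPM and Apob at 1162 against 2347 CPM in mean. Fabp1 stood the other way, at 2013 against 835 CPM. Rbp2, the retinol binding protein of enterocytes, stood at 1079 against 919 CPM and Aldh1a1, which makes retinoic acid, at 121 against 32.8 CPM.

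Of the 27 lowered genes, 15 were tip landmarks, out of 22 counted, and the other 12 were on no landmark list. Slc28a2, a concentrative nucleoside carrier on chromosome 2 from 122426477 to 122461137, stood at 31.2, 13.6, 14.9 and 8.82 CPM without Ada and at 334, 616, 670 and 949 CPM with Ada, 23.6-fold lower. Gm14085, its neighbour on chromosome 2 from 122484941 to 122528040, stood at 0 to 8.67 CPM against 147 to 530 CPM, and 2010109I03Rik on chromosome 15 at 5.58 to 33.4 CPM against 431 to 1070 CPM, 31.4-fold lower. The groups were far apart in every mouse for these 3 genes. Enpp3, an ectoenzyme that cleaves nucleotides, stood at 136 against 583 CPM, and Nt5e, which makes adenosine from AMP, at 1.17 against 120 CPM. Clca4a and its pseudogene Clca4c-ps stood at 102 and 52.6 CPM against 1517 and 496 CPM, and since such copies can share reads their split is uncertain. Further lowered genes were Pmp22 at 50 against 410 CPM, Sfn at 72.1 against 428 CPM and the membrane mucin Muc3 at 140 against 547 CPM. Krt20, the keratin of mature villus cells, stood at 799 against 2149 CPM, lower in 4 of 4 mice but not 2-fold in all.

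In the list of 9 nucleoside genes, 3 of the 5 counted were 2-fold lower in all mice, where 4.21% of all 641 genes were, and the sum was 824 ± 113 CPM against 2021 ± 401. Xdh and Pnp, which break down purines, stood at 289 and 178 CPM against 329 and 201 CPM. Immediate early genes summed to 683 ± 163 CPM without Ada and 1710 ± 340 CPM with Ada, with Klf4 at 191 against 487 CPM, Klf6 at 104 against 323 CPM, Jun at 71.1 against 210 CPM and Fos at 123 against 246 CPM, each lower in 4 of 4 mice. Brush border structure genes summed to 8155 ± 1286 CPM against 12930 ± 2494, while Vil1, the villin of microvilli, stood at 1074 against 1012 CPM.

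Ribosomal protein genes and nuclear genes of the respiratory chain stood higher without Ada. Ribosomal protein genes summed to 1303, 7433, 10450 and 9904 CPM without Ada and to 1236, 4082, 3957 and 4033 CPM with Ada, and mouse 1 was low in both groups. Respiratory chain genes summed to 4611, 11620, 13800 and 11540 CPM against 3688, 7396, 6524 and 6162 CPM. Of 22 ribosomal and 40 respiratory genes counted none passed 2-fold in all 4 mice, where 0.936% of all genes were higher and 4.21% lower, with median ratios of 0.81 and 0.74 against 0.08 over all genes. This count includes mouse 1, where both sums differed least, and is not given without it. The mt- share had medians of 32.4 to 34.4% without Ada and 30.9 to 33.1% with Ada.

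**Figure D2:**
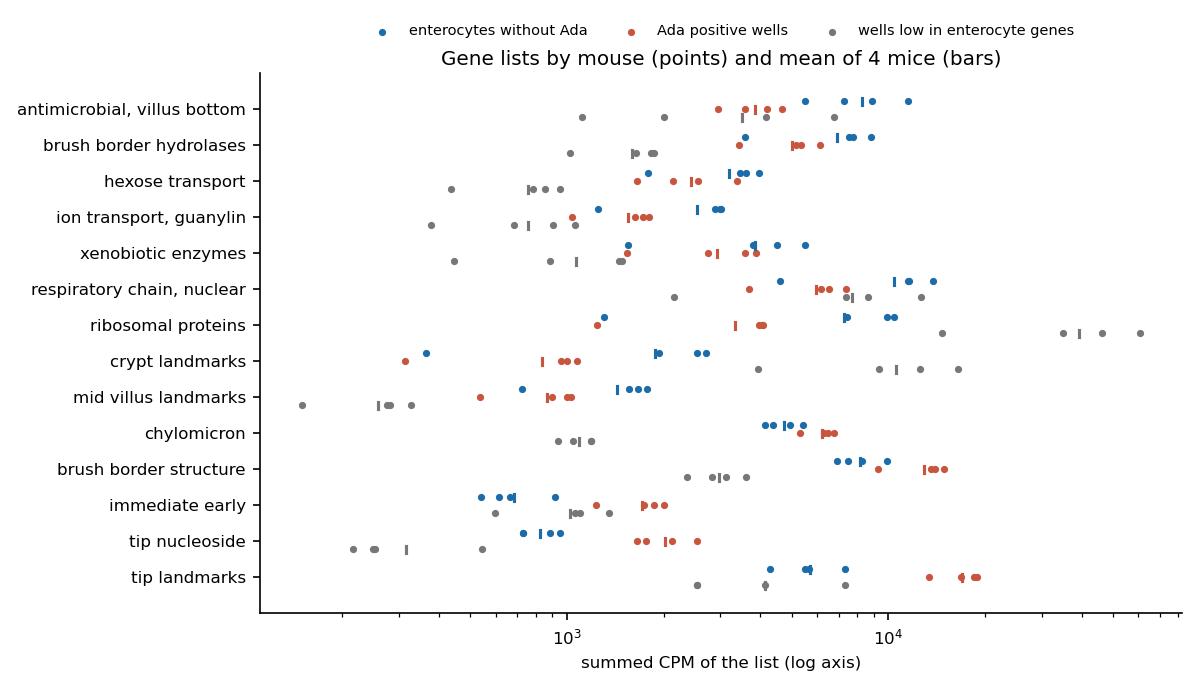
Summed CPM of 14 gene lists on a log axis in enterocytes without Ada, Ada positive wells and wells low in enterocyte genes, with 1 point per mouse and a bar at the mean of 4 mice. Antimicrobial genes summed to 5501 to 11500 CPM without Ada and to 2959 to 4657 CPM with Ada, and tip landmarks to 4290 to 7356 and 13430 to 18930 CPM.

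Set against all 2144 other kept wells together, 8 of 779 genes, or 1.03%, were at least 2-fold higher in all 4 mice and 135, or 17.3%, were lower, at a median log2 ratio of −0.02. The 8 were Arg2, Ccl25, Epb41l3, Gstm3, Reg1, Reg3b, Sis and Slc2a2. Reg3b and Sis had mean ratios of 1.69 ± 0.18 and 1.71 ± 0.22, Ccl25 1.22 ± 0.15 and Slc2a2 1.91 ± 0.65. Epb41l3, a cytoskeleton linker, stood at 152, 235, 285 and 247 CPM in the cells. Of the 135 lower genes 59 coded for ribosomal proteins, out of 79 counted. This group of other wells mixes Ada positive, low and shallow wells in proportions that differ between mice, and without the CD24 plates the counts were 4 higher and 9 lower. Both counts also moved with a mouse left out, over ranges given further on.

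The contrast with low wells was the largest of the 3. Among 899 genes, 156 or 17.4% were at least 2-fold higher in the cells in all 4 mice and 317 or 35.3% lower, at a median of −0.23. Of the hydrolases counted 13 of 14 were higher, of hexose genes 5 of 5, of chylomicron genes outside the rule 9 of 10, of xenobiotic enzymes 11 of 18 and of brush border structure genes 11 of 19. Ribosomal protein genes were lower in 79 of 82 and crypt landmarks in 25 of 26. Low wells had mt- medians of 34.9, 11.1, 17.9 and 14.0% in mice 1 to 4, and when mt- genes, their nuclear pseudogenes and Gm42418 were removed from the totals the counts became 503 higher and 433 lower with a median of 0.75. The part of this difference in composition was not tested.

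Among the cells themselves, Gm42418 spread most beyond counting, and Reg3b and Reg3g were among the first 10 genes ranked by the ratio of variance to mean in the mouse where it was lowest. After thinning to 1000 UMIs, 46 genes had a mean of at least 1 UMI per cell, and the median of their variance to mean ratios was 2.40, where independent counting alone gives a value near 1. Gm42418, with 209 UMIs per cell, had ratios of 67.6 to 80.3 over mice, and mt-Rnr2 and mt-Rnr1, the mitochondrial ribosomal RNAs, had 11.0 to 13.5 and 8.89 to 13.6. Reg3b, with 2.83 UMIs per cell, had ratios of 7.85 to 20.0, and Reg3g, with 1.67 UMIs, 4.89 to 9.42. The remaining 5 of the first 10 were Gm29216, Gm13340, Gm10925, Gm28661 and Gm28437, which the annotation of chromosomes 1 and 2 calls unprocessed pseudogenes. Fabp2 and Apoa4, part of the rule, had ratios of 3.44 to 7.76 and 2.86 to 5.47.

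Over mice 2 to 4, a Reg3b UMI was seen in 58.5% of thinned cells, 38.1% of Ada positive wells and 11% of lymphocyte wells. For Sis the shares were 61.2%, 22.7% and 7.76%, and for Plac8 39.6%, 18.2% and 15.7%. Unthinned, the shares were 75.3%, 60.3% and 18.9% for Reg3b, 79.6%, 39% and 10% for Sis, and 58.1%, 37.6% and 20.7% for Plac8. A Slc28a2 UMI was seen in 1.61% of thinned cells, 37.4% of Ada positive wells and 8.22% of lymphocyte wells, and unthinned in 2.29%, 51% and 12%. Lymphocyte wells held Slc28a2 more often than the cells, so they give no background for this gene. Their Plac8 share, 15.7% when thinned, lay close to the 18.2% of Ada positive wells, and whether it is background was not tested.

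The cells were then ordered within each mouse by the share of tip UMIs among tip and crypt landmark UMIs, with 28 tip and 26 crypt landmarks that the rule did not use, and cut into 3 groups of 52 to 104 cells, the crypt end, the middle and the tip end. Of the crypt landmarks, 21 are ribosomal protein genes or pseudogenes. A cell held a median of only 7, 5, 4 and 5 tip UMIs and 0, 1, 1 and 1 crypt UMIs after thinning, and the median tip share was 100, 83.3, 75 and 81.8% in mice 1 to 4. In mouse 1 the middle and the tip end both had a median of 100%, so they differ only by the order of tied wells. The levels below are descriptions, since the order comes from the same UMIs, and the 3 groups also differ in Gm42418, at 106600 to 232100 CPM at the crypt end and 180900 to 389500 CPM at the tip end. Median mt- shares in mice 1 to 4 were 32.73, 29.23, 31.09 and 28.55% at the crypt end. At the tip end they were 35.48, 34.52, 34.96 and 34.6%.

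Antimicrobial genes were lower at the tip end than at the crypt end in every mouse. Lypd8 stood at 377, 1237, 1417 and 1135 CPM at the crypt end and at 76.9, 152, 221 and 57.7 CPM at the tip end, a log2 ratio of tip to crypt end of −2.95 ± 0.82. Plac8 went from a mean of 1705 CPM through 616 to 331 CPM, Reg1 from 264 through 57.0 to 31.5 CPM, Reg3b from 5334 through 1941 to 1200 CPM and Reg3g from 3055 through 1161 to 800 CPM. In mouse 1 Reg3b was lowest in the middle, at 377 CPM against 1000 CPM at the tip end. The sum of the 16 antimicrobial genes had a ratio of −1.45 ± 0.34, or −0.80 with abundant RNAs (mt- genes, their nuclear pseudogenes and Gm42418) out of the totals. Without Malat1 among the tip landmarks the ratio of Lypd8 was −2.62 and that of Reg3b −1.63, and with abundant RNAs out of the totals they were −2.39 and −1.47.

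Digestive genes lay on both sides, and their ratios depended on the denominator. Sis stood at 1612 CPM in mean at the crypt end, 984 in the middle and 786 at the tip end, a ratio of −1.16 ± 0.46, and was lower at the tip end in 4 of 4 mice. With abundant RNAs out of the totals its ratio was −0.53 and 1 mouse was higher at the tip end. Slc5a1 stood at 1403, 1195 and 974 CPM, with a ratio of −0.66 ± 0.68 and 1 mouse higher at the tip end, or −0.01 and 2 mice higher with abundant RNAs out. Slc6a19 went the other way, from 210 through 306 to 355 CPM, a ratio of 0.71 ± 0.27, higher in 4 of 4 mice, and 1.37 with abundant RNAs removed. Neat1, a nuclear non-coding RNA, stood at 93 CPM at the crypt end and 234 CPM at the tip end, a ratio of 1.31 ± 0.40, or 0.66 without Malat1 among the tip landmarks and 2.02 with abundant RNAs removed.

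The hexose list had a ratio of −0.54 ± 0.34, the amino acid and peptide list −0.33 ± 0.19, the hydrolases −0.46 ± 0.40 and chylomicron genes −0.23 ± 0.43. With abundant RNAs out of the totals all 4 turned, to 0.11, 0.32, 0.19 and 0.41, so no direction is given for them. Ribosomal protein genes that are not landmarks went from 11940 CPM in mean at the crypt end to 2077 CPM at the tip end, a ratio of −2.29 ± 0.63 (−1.64 with abundant RNAs removed), and share their kind with most crypt landmarks. Nuclear respiratory chain genes went from 15910 through 8914 to 6616 CPM, a ratio of −1.30 ± 0.18, and −0.65 ± 0.11 with abundant RNAs removed.

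**Figure D3:**
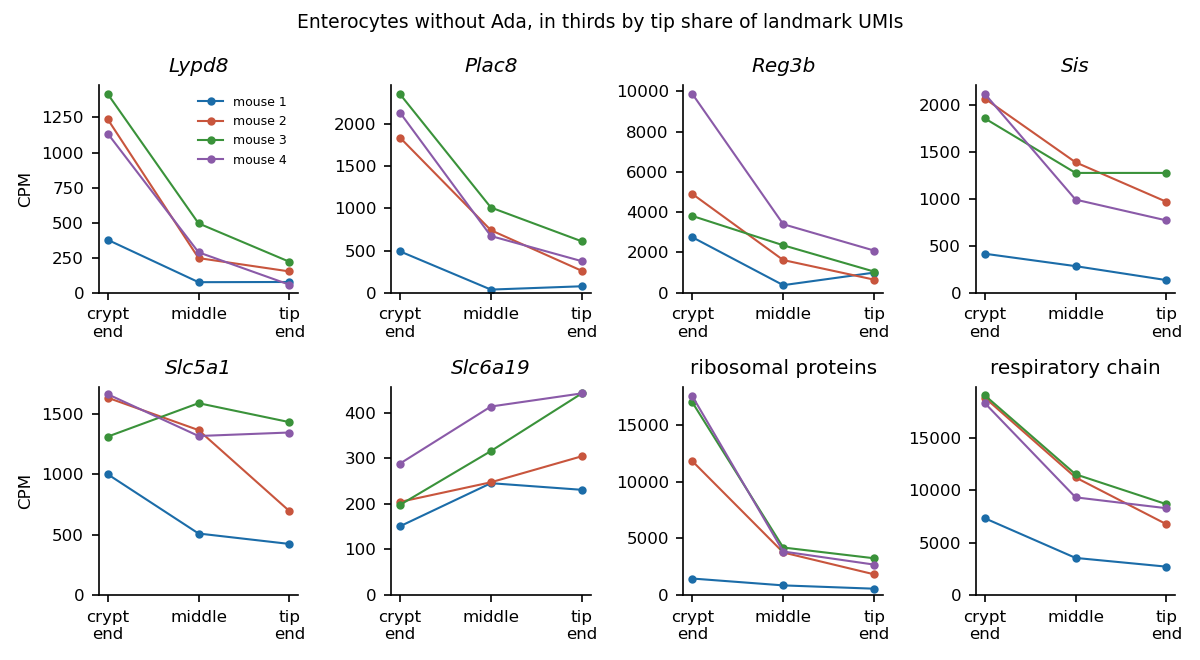
CPM of 6 genes and 2 gene lists in 3 groups of the enterocytes without Ada, ordered within each mouse by the share of tip UMIs among landmark UMIs, with 1 line per mouse and axes from 0. Lypd8, Plac8 and ribosomal protein genes were lower at the tip end than at the crypt end in each mouse, while Slc6a19 stood 210 CPM in mean at the crypt end and 355 CPM at the tip end.

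The same split was tested in wells that the rule had not used, the 4n clumps, by sorting clumps of at least 200 genes, 1000 UMIs and at most 30% mt- UMIs into classes by the same thresholds on their own UMIs. A test then asks whether the remaining genes differ between clumps that Ada and the 5 genes set apart. Clumps without Ada numbered 198, 368, 453, 54 and 10 in mice 1 to 5, clumps with Ada 54, 168 and 342 in mice 1 to 3, and clumps low in enterocyte genes 76, 117, 202 and 147 in mice 1 to 4. Fewer than 5 clumps of a class were not used, so that mice 4 and 5 gave no clumps with Ada. These mice had mt- medians of 19.3 to 21.9% where mice 1 to 3 had 2.94 to 6.90%. UMIs were summed per mouse and class and 5620 genes outside the rule were tested by edgeR's quasi-likelihood test with Benjamini-Hochberg adjustment at 0.05. The classes of 1 mouse deviated together, so values with the mouse as a block are given where they change a call.

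Clumps without Ada had 146 genes lower than clumps with Ada, or 2.6%, and 1 gene higher, or 0.0178%. With the mouse as a block 459 genes were lower, or 8.17%, and 403 higher, or 7.17%. Leaving out 1 mouse moved the lower count, to 63 without mouse 1, 46 without mouse 2 and 76 without mouse 3. The gene higher was Gm5621, a processed pseudogene on chromosome 9 from 105560122 to 105560761, with a log2 change of 1.42 (SE 0.37) and an edgeR adjusted p of 0.0413, and it lost the call under 6 alternatives, among them each of mice 1 to 3 left out, where the adjusted p was 0.22 to 0.591.

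Of the 27 genes lower in single cells in all 4 mice, 24 were called lower by edgeR in clumps and all 27 had the same sign, with a median log2 change of −2.95. Azin1, Klf6 and Serpinb1a were not called by edgeR without the block, and all 27 were called with it. Slc28a2 stood at 1.68, 14.2, 31.5, 0 and 0 CPM in the clumps without Ada of mice 1 to 5 and at 574, 853 and 465 CPM in those with Ada, a change of −5.48 (SE 0.59, edgeR adjusted p = 7.75e-06). 2010109I03Rik stood at 0 to 22.8 CPM against 920 to 1619 CPM, a change of −6.44 (SE 0.51, adjusted p = 9.53e-08). Gprc5a, an orphan receptor, stood at 0 to 3.05 CPM against 120 to 242 CPM, Gm14085 at 0 to 6.09 against 242 to 359 CPM and Nt5e at 0 to 3.55 against 32.8 to 170 CPM. No mouse overlapped between the classes for these 5 genes, and their edgeR adjusted p-values were at most 0.00179 with any 1 mouse left out.

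The 6 genes higher in single cells all had the same sign in clumps, at a median change of 0.68, and 0 of the 6 were called by edgeR without the block, where 774 of the 5620 genes had an unadjusted p under 0.05. With the block all 6 were called. Lypd8 stood at 1467, 1727, 1758, 3099 and 2202 CPM without Ada and at 189, 598 and 1084 CPM with Ada, a change of 1.67 (SE 0.51, edgeR adjusted p = 0.105), or 1.39 and 3.99e-05 with the block. DESeq2 called Lypd8 (1.70, adjusted p = 0.00626) but not Reg3b, Sis or Plac8, and the Lypd8 levels of the 2 classes did not overlap. Reg3b stood at 13070, 14530, 24710, 9228 and 9778 CPM against 3035, 7836 and 17540 CPM, with a change of 0.50 (adjusted p = 0.734), or 0.99 and 0.0035 with the block, and was higher without Ada in each of mice 1 to 3. Sis stood at 2811, 2981 and 3334 CPM in mice 1 to 3 against 883, 1236 and 2045 CPM, but at 886 and 388 CPM in mice 4 and 5, with a change of 0.50 (adjusted p = 0.768), or 1.05 and 0.000879 with the block. Plac8 had a change of 0.82 (adjusted p = 0.493), or 1.02 and 0.00419 with the block. Slc5a1 stood at 1899, 2346 and 2514 CPM in mice 1 to 3 against 1064, 1531 and 1903 CPM and at 594 and 259 CPM in mice 4 and 5, with a change of −0.07 (adjusted p = 0.975), or 0.40 and 0.181 with the block, so it was not called by either fit.

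Ada is itself on the study's tip list, so lower tip landmarks in clumps without Ada are in part built into the split. Calls by list are those of edgeR. By list, 21 of the 28 tip landmarks were called lower without Ada and 0 higher, where 2.6% of all genes tested were lower, and so were 3 of 8 nucleoside genes (Enpp3, Nt5e and Slc28a2), 3 of 12 immediate early genes (Atf3, Jun and Klf4), 3 of 21 brush border structure genes, 2 of 15 chylomicron genes and 2 of 12 interferon genes. With the block, where 8.17% of all genes were lower and 7.17% higher, these became 27 of 28 tip landmarks, 3 of 8, 7 of 12, 11 of 21, 8 of 15 and 5 of 12. Of 15 antimicrobial genes edgeR called 1, Duoxa2, lower and 0 higher, or 7 higher with the block. Of 86 ribosomal protein genes 0 were called, or 70 higher with the block, at a median change of 0.72 against 0.07 over all genes tested. Crypt landmarks gave 0 of 26, or 22 with the block. No hexose, hydrolase or amino acid gene was called, with median changes of 0.62, −0.28 and 0.17, and with the block 4 of 13, 3 of 19 and 0 of 14 were higher and 0, 2 and 2 lower, to be read against the 7.17% and 8.17% of all genes.

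**Figure D4:**
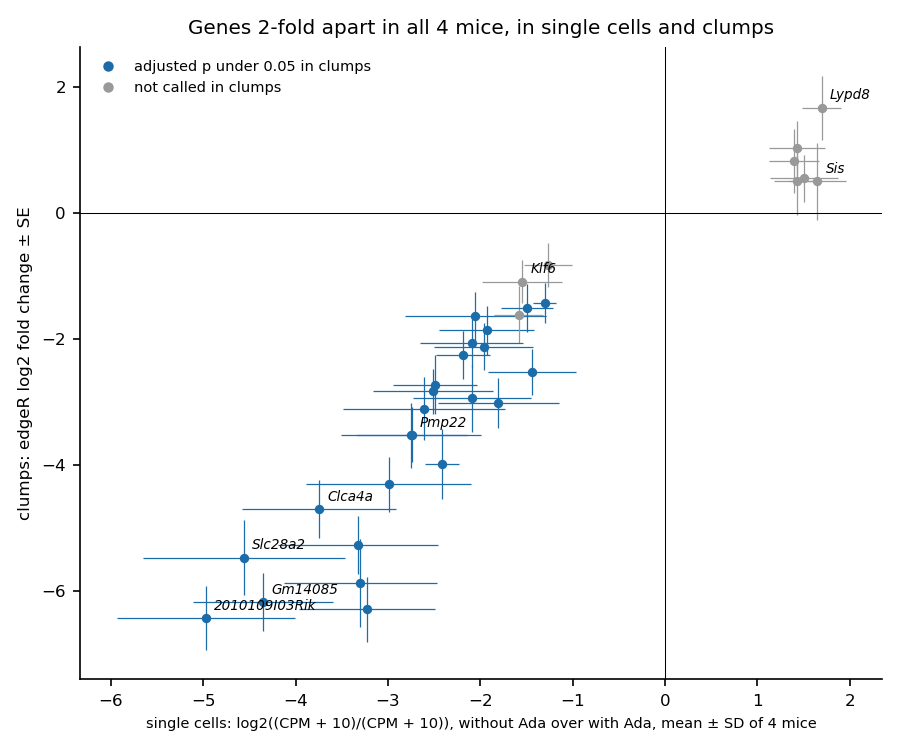
Genes at least 2-fold apart between enterocytes without and with Ada in all 4 mice, with the single-cell log2 ratio (mean ± SD of 4 mice) on the horizontal axis and edgeR's log2 change in 4n clumps (± SE) on the vertical axis. The 27 lowered genes all lay below 0 in clumps, 24 of them called by edgeR, and the 6 raised genes all lay above 0, none called by edgeR without the mouse as a block.

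Against clumps low in enterocyte genes, clumps without Ada had 747 genes higher, or 13.3%, and 1439 lower, or 25.6%, and 1269 (22.6%) and 1837 (32.7%) with the block. Without mouse 3 the counts were 388 and 918, and without mouse 2 the higher count was 465. Pdzk1, a scaffold of brush border carriers, stood at 376, 310, 417, 46.6 and 130 CPM against 2.51, 2.27, 15.4 and 0 CPM, a change of 4.98 (SE 0.62, edgeR adjusted p = 1.25e-05). Slc2a2 had a change of 4.42, Slc6a19 of 4.56, Cyp2b10, a xenobiotic enzyme, of 4.90 and Dnase1 of 4.33. Slc5a1 rose by 2.41 (SE 0.53, adjusted p = 0.001). Called higher were 16 of 19 hydrolases, 12 of 14 amino acid and peptide carriers, 13 of 15 chylomicron genes, 18 of 25 xenobiotic enzymes, 8 of 13 hexose genes, 9 of 12 genes of the MHC class I and butyrophilin-like list and 8 of 12 interferon genes. With the block, where 22.6% of all genes were higher, these became 17, 12, 14, 21, 11, 11 and 10 in the same order. The block also gave 1 lower amino acid or peptide carrier. The hydrolase list's single lower call was Cps1, a mitochondrial enzyme that is no brush border hydrolase.

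Called lower were 84 of 86 ribosomal protein genes, 26 of 26 crypt landmarks, 9 of 10 genes of stem and dividing cells and 10 of 10 Paneth genes. Large falls at 100 CPM or more included Lyz2, Gm10104, Gm15308 and Defa2, with changes of −6.50 to −6.27. Defa2 belongs to the alpha-defensins of Paneth cells, near-identical copies among which reads can be split. Defa2 stood at 8724, 4.55, 5610 and 1000 CPM in the low clumps of mice 1 to 4, so mouse 2 held almost none. Of 15 antimicrobial genes 2 (Nos2 and Reg3a) were higher and 3 lower without the block, close to the 13.3% and 25.6% of all genes, so the counts of this fit show nothing about the list. With the block 8 were higher and 3 lower, where 22.6% and 32.7% of all genes were. Lypd8 stood at 1467 to 3099 CPM without Ada against 1471 to 1977 CPM in low clumps, a change of 0.04 (SE 0.44, edgeR adjusted p = 0.957), Plac8 had 0.33 (adjusted p = 0.612) and Reg3b 1.03 (adjusted p = 0.114, or 2.45e-06 with the block). Reg3g, Reg1 and Ccl25, higher in 4 of 4 mice, had changes of 0.58, 0.99 and 0.50 (adjusted p = 0.378, 0.512 and 0.35) and were called with the block. Sis had 1.37 (adjusted p = 0.0627) and was also called with the block.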

How the data were processed

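Wells and clumps of mouse jejunum were sequenced by MARS-seq. Per the study's methods and the submitters' processing notes, reads were converted with bcl2fastq 2.15.0.4, aligned with STAR to GRCm38 and counted per gene with zUMIs. The deposited values are raw UMI counts, in whole numbers and not normalized, with single cells in 1 table (23379 genes, 39137313 UMIs) and clumps in another. Background of empty wells was not subtracted here, since the empty wells are not named in the sources used here. No doublet caller was run.

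Enterocytes without Ada were picked by the stated rule, and counts were summed per mouse. The mouse was the replicate, and mice of the single-cell and clump tables are numbered apart. The 4 months plates carry the number of mouse 2, and whether they stem from that animal is open in the labels. Levels are CPM, and single-cell ratios used a pseudocount of 10 CPM and genes at a mean of at least 100 CPM in either group. The members and gene lists were chosen with earlier results of these data known, and the landmark lists come from the study's supplement. Named genes are those of the rule and label, the 10 most abundant outside mt- genes, those with the largest ratio kept in all mice at a mean of 200 CPM or more, the most variable at 1 UMI or more, up to 4 per list and the 5 largest called changes each way in clumps at 100 CPM or more. Arg2, Gstm3, Reg1 and the other genes of small counts were named after their values were seen.

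Clump sums per mouse and class were tested in 1 fit of 3 classes with edgeR 4.0.16 (quasi-likelihood test, TMM, filterByExpr) in R 4.3.3, and the scripts were tested on simulated counts. Classes with the same mouse number come from 1 animal, and their deviations from the class means correlated at 0.176 to 0.606 within mice and −0.549 to 0.332 between mice, so the numbers pair the samples. Alternatives were DESeq2 1.42.0, other normalization, filters, thresholds, denominators, thinning, plates, each mouse left out and the mouse as a block. Leaving out abundant RNAs from totals, leaving out Malat1, the low wells comparison with each mouse left out, and clumps of mice 1 to 3 only were chosen after seeing the data. Positions are those of GENCODE M21 and promoters those of RefSeq. Some genes that this rule names are not reported here.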

Additional observations from a re-analysis of the deposited data

Results flagged for a closer look

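Of 138 values per mouse tested for a mouse standing apart from the others, 8 did, where chance flags about 1 in 20. Mouse 1 stood apart in 4 of them. There beta-oxidation genes summed to 455.1 CPM against 924 to 995 CPM, and ion transport and guanylin genes to 1246 CPM against 2894 to 3018 CPM. The log2 ratio to Ada positive wells in mouse 1 was 0.78 for Atp1b1, against 1.34 to 1.41 in the others, and −1.55 for Sfn, against −2.90 to −2.78.

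Tuft markers summed to 87.9 CPM in the cells of mouse 2 against 7.72 to 17.7 CPM in the other mice, and enteroendocrine markers to 90.4 CPM against 28.7 to 33.5 CPM. Plates sorted with CD24 are part of mouse 2, and 3 of its 278 cells lie on them. The log2 ratio of Epb41l3 to all other kept wells was 1.78 in mouse 3 against 1.10 to 1.21, and that of 2010109I03Rik −5.05 in mouse 4 against −3.48 to −3.16.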

How the results depend on the processing

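Counts of genes 2-fold apart in all mice moved with the plates, the denominator and mouse 1, and the causes were not tested. Against all other kept wells, the 8 genes higher became 17 with mt- UMIs out of the totals, 72 with abundant RNAs out, 29 at an enterocyte share of 1%, 4 at 2000 UMIs, 16 with a pseudocount of 1 CPM and 4 without CD24 plates, and 7 to 38 with a mouse left out. The 135 lower became 238 as means of per-well shares, 9 without CD24 plates and 219 with wells of any excluded marker UMIs, and 134 to 232 with a mouse left out. Against Ada positive wells, the 6 higher became 10 thinned, 18 at 1%, 20 with at least 2 Ada UMIs and 36 with abundant RNAs out, and 6 to 31 with a mouse left out. The 27 lower became 42 without mt- UMIs, 53 with no minimum, 52 with at least 2 Ada UMIs and 59 with abundant RNAs out, and 24 to 55 with a mouse left out. Against low wells, 156 higher became 503 with abundant RNAs out of the totals. Along the landmark order, the hexose list turned to 0.11 and the amino acid list to 0.32 under that denominator, and another seed gave a median variance to mean ratio of 2.52.

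In clumps with Ada compared, the 1 gene higher became 14 by DESeq2, 8 with no filter, 403 with the mouse as a replicate block, 14 in mice 1 to 3 only, 2 with larger clumps added, 5 thinned and 0 to 5 with a mouse left out, and the 146 lower became 459 with the block and 46 to 166 with a mouse left out. Against low clumps, 747 higher became 1269 with the block, 1376 with larger clumps and 388 to 863 with a mouse left out, and 1439 lower became 2237 with no filter, 781 thinned (of 2954 genes tested) and 918 to 1564 with a mouse left out. Of the other values of single genes and lists, 13 gained and 6 lost a call. In all 15 changed sign, namely the hexose, amino acid and hydrolase lists under 1 setting each, the chylomicron list under 2, and, uncalled in each, Slc5a1 against clumps with Ada and Lypd8 against low clumps under 5 each. Depth limits genes under about 1 UMI per cell, and intervals cover counting error only. The single-cell groups were cut from the counts they are described by, and plates, sorts and mice of 1 group are partly confounded and cannot be told apart.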
